A study of Mus musculus with 12 samples.

Results

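To see how genes of the choroid plexus varied between whole mouse brains after chronic stress and krill oil, the transcripts of Ttr, Folr1, Clic6, Kl, Aqp1, Slc4a5, Enpp2, Sostdc1 and Otx2 were followed. These 9 genes were taken by name from a table of 55385 genes, and all 9 were among the 21393 genes that were tested because their mean FPKM reached 0.1. FPKM is a fragment count scaled by transcript length and library depth, so that levels can be compared between genes. The 12 libraries came from brains of male wild-type mice of the strain that the labels give as C57/BL6J, bought at an age of 8 weeks, with 3 mice chosen at random in each of 4 groups. C_W mice were given water into the stomach and were not stressed, C_O mice received 200 mg/kg of krill oil daily over 5 weeks by the same route, MS_W mice were given water likewise and underwent chronic unpredictable mild stress (CUMS) for 4 weeks, and MS_O mice received both CUMS and krill oil at the same dose. All mice were perfused with saline before the brain was taken. Each mouse gave 1 library of poly(A) RNA, named here by group and mouse number, so replicates are separate animals. The estimated counts per library summed to between 50912906 and 75678721.

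The choroid plexus is a folded sheet of epithelium around a core of vessels that hangs into the ventricles, and it secretes the cerebrospinal fluid and forms the barrier between blood and this fluid. Its cells make transthyretin in large amounts and carry ions, water and folate across the epithelium. The tissue is a small part of the brain, and the plexuses of the different ventricles lie apart from each other. In RNA from bulk tissue, fewer cells of a type and less RNA per cell cannot be told apart.

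The members were first set beside the 21 other choroid plexus genes of a list that includes Kcne2, Kcnj13, Calml4, Cldn2, Wfdc2 and Lbp. Ttr was highest in 5 libraries, namely C_O72, MS_W95, C_W1, C_O15 and MS_O13, and every group had at least 1 of them. Of the 9 members, 7 had their 5 highest values in these same libraries, but Ttr is among these 7 by definition. The same held for 15 of the 21 other choroid plexus genes, while the share over all tested genes was 0.495%. The list was written with earlier results of these data known, and the 5 libraries were taken from Ttr itself. These counts therefore describe the pattern and are no independent check of the label. The exceptions among the members were Clic6 and Aqp1, and those in the list were Prlr, Slc13a4, Slc29a4, Car12, Lmx1a and Igfbp2. Pineal and pigment epithelium, which also express Otx2 or Ttr, were checked by 6 markers. Of these, the photoreceptor and pineal factor Crx was listed at the lower bound of 0.0001 in 11 of the 12 libraries and reached 0.0211 FPKM in C_W70, and the melatonin enzyme Asmt was likewise above that bound only in MS_O13, at 0.0217. Aanat and Tph1, in contrast, were above that bound in all 12 libraries. Aanat ran from 0.0751 FPKM in MS_W95 to 0.335 in MS_O78, and Tph1 from 0.0106 in C_O72 to 0.128 in MS_O13. Tyr was at the bound in 7 libraries and reached 0.0247 in MS_W31. Rpe65, the retinoid isomerase of pigment epithelium, had its lowest values in C_O72 (0.275 FPKM) and MS_W95 (0.0477), but it was 0.942 in C_W1, 0.943 in MS_O13 and 1.48 in C_O15, against 0.508 to 2.11 in the 7 other libraries.

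**Figure D1:**
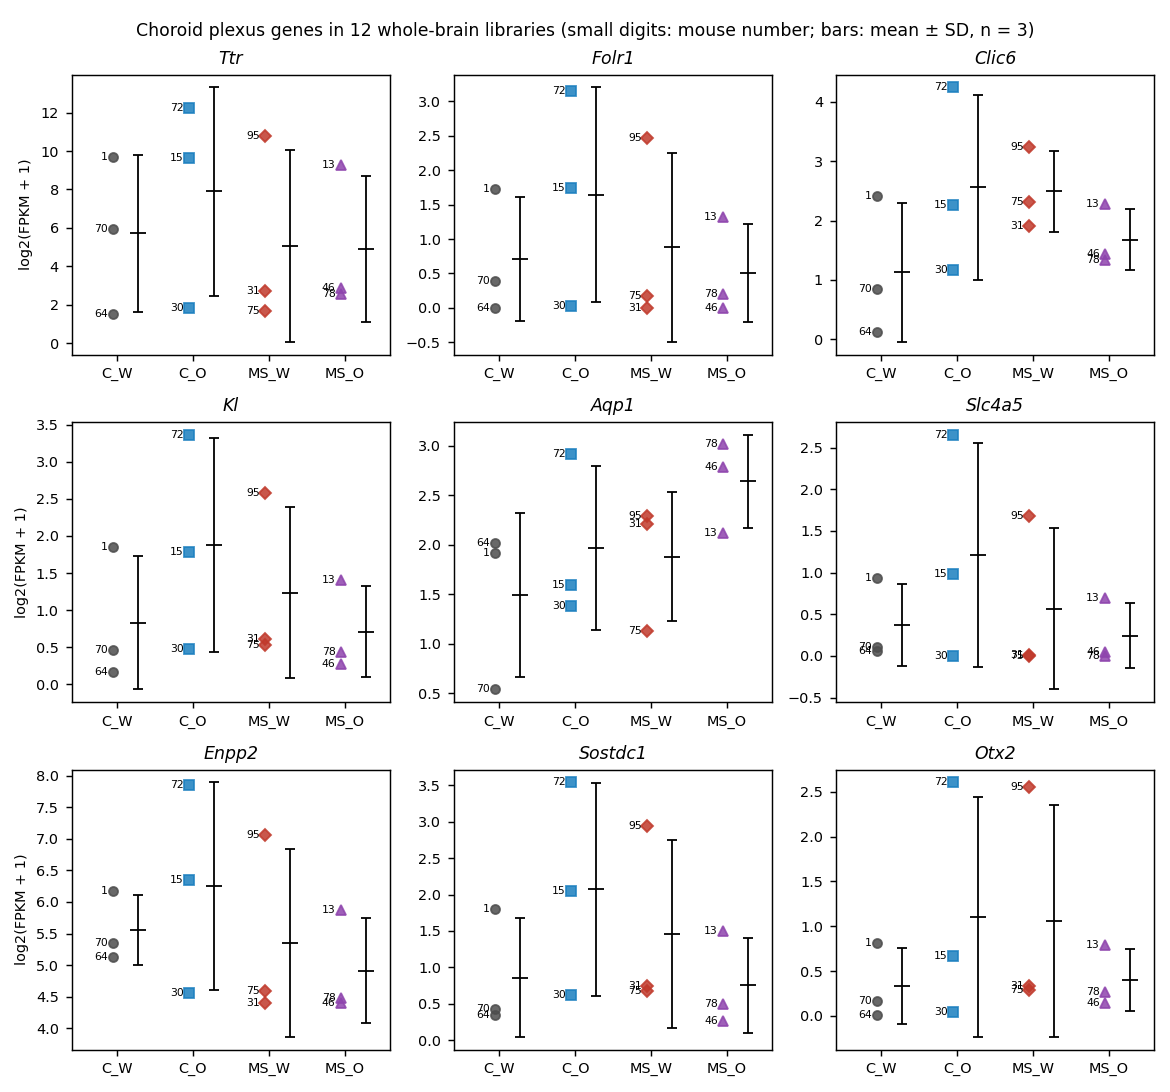
Level of each of the 9 choroid plexus genes, as log2(FPKM + 1), in the 12 whole-brain libraries. Each symbol is 1 mouse with its number, and the bar beside each group gives the mean ± SD (n = 3). Mice 1, 15, 72, 95 and 13 stand above the other mice of their groups for Ttr, Folr1, Kl, Slc4a5, Enpp2, Sostdc1 and Otx2, whereas Aqp1 has another order.

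Ttr (ENSMUSG00000061808, chromosome 18) encodes transthyretin, the carrier of thyroid hormone and of the retinol-binding protein in cerebrospinal fluid and plasma. Its FPKM was 827 in C_W1, 1.88 in C_W64 and 59.8 in C_W70, and it was 804 in C_O15, 2.51 in C_O30 and 4772 in C_O72. In the stressed mice it was 5.69 in MS_W31, 2.16 in MS_W75 and 1784 in MS_W95, and 612 in MS_O13, 6.29 in MS_O46 and 4.83 in MS_O78. Thus 5 libraries held at least 612 FPKM, C_W70 was alone in between, and the other 6 were below 10, so that each group had mice at both ends and all groups overlapped.

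The highest value of Ttr was 2534 times the lowest. On the log2(FPKM + 1) scale its SD over the 12 libraries was 4.13, the largest of all 21393 tested genes, whose median SD was 0.21. For Ttr, 9.14% of the sum of squares lay between the 4 groups, against a median of 29.9% over all tested genes. For the 9 members the median SD was 1.09 and the median share between groups was 21.1%. The estimated counts behind Ttr ranged from 150 in MS_W75 to 323912 in C_O72, and the total counts of the 5 libraries with high Ttr spanned those of the 6 libraries below 10 FPKM.

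Folr1 (ENSMUSG00000001827, chr7:101858331-101870788) encodes the folate receptor alpha, which takes folate into the cerebrospinal fluid at the choroid plexus. Its FPKM was 2.30 in C_W1 and 0.315 in C_W70 and was listed at 0.0001 in C_W64, while the C_O libraries had 2.35 in C_O15, 0.0215 in C_O30 and 7.90 in C_O72. In MS_W it was listed at 0.0001 in MS_W31 and had 0.132 in MS_W75 and 4.53 in MS_W95, and in MS_O it had 1.502 in MS_O13 and 0.1497 in MS_O78 and was listed at 0.0001 in MS_O46. Again 1 or 2 mice of each group carried nearly all of the signal.

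Among the genes of ion and water transport, Slc4a5 (ENSMUSG00000068323, chr6:83219828-83304944) encodes a sodium bicarbonate cotransporter of the apical membrane. Its FPKM was 0.910 in C_W1, 0.0443 in C_W64 and 0.0751 in C_W70, and it was 0.979 in C_O15 and 5.29 in C_O72 but listed at 0.0001 in C_O30. It was 0.0101 in MS_W31 and 2.21 in MS_W95 and listed at 0.0001 in MS_W75, and it was 0.612 in MS_O13 and 0.0304 in MS_O46 and listed at 0.0001 in MS_O78. Slc4a5 was thus near 0 outside the 5 libraries with high Ttr. Clic6 (ENSMUSG00000022949, chr16:92485736-92541243), a chloride intracellular channel protein, was less divided. It had 4.33, 0.0878 and 0.806 FPKM in C_W1, C_W64 and C_W70, 3.83, 1.24 and 18.0 in C_O15, C_O30 and C_O72, 2.77, 3.97 and 8.48 in MS_W31, MS_W75 and MS_W95, and 3.84, 1.71 and 1.51 in MS_O13, MS_O46 and MS_O78. MS_W75, with little Ttr, held more Clic6 than C_O15 and MS_O13, which had much Ttr.

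Aqp1 (ENSMUSG00000004655, chr6:55336432-55348555), the water channel of the apical membrane that is also found outside the plexus, did not follow the other members. Its FPKM was 2.79 in C_W1, 3.06 in C_W64 and 0.456 in C_W70, and 2.02 in C_O15, 1.61 in C_O30 and 6.53 in C_O72. It was 3.64 in MS_W31, 1.19 in MS_W75 and 3.91 in MS_W95, and 3.34 in MS_O13, 5.91 in MS_O46 and 7.11 in MS_O78. MS_O78 and MS_O46, both with under 10 FPKM of Ttr, thus ranked high for Aqp1, with MS_O78 above all libraries and MS_O46 below only MS_O78 and C_O72. The highest value of Aqp1 was 15.6 times the lowest, the narrowest range among the members apart from that of Enpp2, which was 11.4-fold.

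Of 12 further genes of fluid secretion, Kcne2, Kcnj13 and Slc4a2 had their 5 highest values in the libraries with high Ttr, and the other 9 had not. Kcne2, a potassium channel subunit, had 13.9 FPKM in C_O72 and 7.08 in MS_W95, between 1.25 and 2.17 in MS_O13, C_O15 and C_W1, and at most 0.342 in the other libraries. Kcne2, Kcnj13 and Car12 also stand in the list of other choroid plexus genes.

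Secreted and membrane-bound factors formed the next group. Kl (ENSMUSG00000058488, chr5:150952607-150993817) encodes klotho, a coreceptor of FGF23 that is shed into the cerebrospinal fluid. Its FPKM was 2.61, 0.126 and 0.382 in C_W1, C_W64 and C_W70, 2.45, 0.395 and 9.29 in C_O15, C_O30 and C_O72, 0.525, 0.444 and 4.95 in MS_W31, MS_W75 and MS_W95, and 1.65, 0.209 and 0.358 in MS_O13, MS_O46 and MS_O78. Sostdc1 (ENSMUSG00000036169, chr12:36314139-36318452) encodes a secreted antagonist of BMP and Wnt signals. It had 2.48, 0.274 and 0.354 FPKM in C_W1, C_W64 and C_W70, 3.15, 0.537 and 10.6 in C_O15, C_O30 and C_O72, 0.671, 0.604 and 6.68 in MS_W31, MS_W75 and MS_W95, and 1.82, 0.206 and 0.412 in MS_O13, MS_O46 and MS_O78. The levels of Kl and Sostdc1 ran side by side, with a ratio of Kl to Sostdc1 between 0.460 and 1.08 in the 12 libraries, although the highest value of Kl was 73.8 times its lowest. Bmp4, Bmp7, Lrp4, Lrp5 and Lrp6, ligands and coreceptors of the same pathways, did not have their 5 highest values in these libraries, and their summed FPKM ranged from 8.43 to 15.6.

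Enpp2 (ENSMUSG00000022425, chr15:54838901-54920125) encodes autotaxin, the secreted enzyme that makes lysophosphatidic acid, and is also expressed by oligodendrocytes. Its FPKM was 71.4 in C_W1, 34.2 in C_W64 and 39.7 in C_W70, and 80.1 in C_O15, 22.5 in C_O30 and 229 in C_O72. It was 20.1 in MS_W31, 23.0 in MS_W75 and 132 in MS_W95, and 57.3 in MS_O13, 20.1 in MS_O46 and 21.2 in MS_O78. Enpp2 therefore kept a level of at least 20.1 FPKM in libraries in which Ttr, Folr1 and Slc4a5 were near 0, and stood at 57.3 or more in the 5 libraries with high Ttr.

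The summed FPKM of 8 oligodendrocyte markers was 1220 in C_O72 and 648 in MS_W95 and lay between 243 and 490 in the other libraries, and all 8 had their highest value in C_O72. In the other 3 libraries with high Ttr the sum did not stand out, since C_W70 had 490 and 39.7 FPKM of Enpp2, whereas C_W1 had 442 and 71.4 FPKM of Enpp2. The part of oligodendrocytes in the Enpp2 levels of C_O72 and MS_W95 was not tested. The 7 tested receptors and phosphatases of lysophosphatidic acid, such as Lpar1 (11.5 FPKM in C_O72, 11.4 in MS_W95 and 4.26 to 6.13 elsewhere), did not share the 5 highest libraries.

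Otx2 (ENSMUSG00000021848, chr14:48657677-48667515), a homeobox factor needed to form and keep the choroid plexus epithelium, reached at most 5.08 FPKM. Its FPKM was 0.754 in C_W1, 0.0107 in C_W64 and 0.126 in C_W70, and 0.592 in C_O15, 0.0274 in C_O30 and 5.08 in C_O72. It was 0.263 in MS_W31, 0.224 in MS_W75 and 4.88 in MS_W95, and 0.730 in MS_O13, 0.105 in MS_O46 and 0.200 in MS_O78. Otx2 was thus nearly as high in MS_W95 as in C_O72, whereas the other members with high values in both libraries were clearly lower in MS_W95. Exons of Otx2 overlap those of Gm49154 on the same strand and of Otx2os1 on the other strand, exons of Enpp2 overlap those of Gm26684 on the other strand, and, although the library kit marked the strand, its use in the counting is not given in the sources used here, so reads of these genes may not be told apart.

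For 4 of the 9 members, Kl, Aqp1, Slc4a5 and Otx2, the RefSeq promoter table (GRCm38.p6) held a start site. The 250 bases before the start are shown for Kl and Otx2, which followed Ttr, and for Aqp1, which did not, so that the regions can be compared, while that of Slc4a5 overlaps an annotated exon. Otx2 has 4 starts in the table, and the one farthest upstream is shown. Capitals mark a match to TATAAA, the TATA box, on the strand of the gene, and the sequences run 5′ to 3′ on that strand.
Kl, chr5:150952357-150952606, plus strand: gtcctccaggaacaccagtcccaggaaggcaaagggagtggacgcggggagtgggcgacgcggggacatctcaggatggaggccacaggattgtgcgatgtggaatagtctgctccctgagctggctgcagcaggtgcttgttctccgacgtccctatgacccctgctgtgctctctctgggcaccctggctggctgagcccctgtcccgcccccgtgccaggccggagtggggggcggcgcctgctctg
Aqp1, chr6:55336049-55336298, plus strand: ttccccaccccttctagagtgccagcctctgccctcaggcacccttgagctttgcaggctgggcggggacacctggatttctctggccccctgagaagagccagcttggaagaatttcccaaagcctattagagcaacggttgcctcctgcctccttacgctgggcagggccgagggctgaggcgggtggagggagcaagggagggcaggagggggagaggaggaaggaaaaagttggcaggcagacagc
Otx2, chr14:48667645-48667894, minus strand: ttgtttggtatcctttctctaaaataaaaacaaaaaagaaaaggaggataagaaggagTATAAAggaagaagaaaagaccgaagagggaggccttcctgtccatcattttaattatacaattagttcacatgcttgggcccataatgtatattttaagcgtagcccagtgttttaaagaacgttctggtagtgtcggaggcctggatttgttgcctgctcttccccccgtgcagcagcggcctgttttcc
The windows of Kl and Aqp1 had a GC content of 66.8% and 62%, against 42% in that of Otx2 and a median of 52.4% over 32851 promoters of the same length. The letters TAATCC or their complement GGATTA, the motif bound by Otx2 itself, were searched on both strands and lay in 6.25% of all these promoters. They were found before 1 of the 4 starts of Otx2, 211 bases before that start (chr14:48665110-48665359), and in none of the windows of Kl, Aqp1 and Slc4a5. TATAAA or TTTATA, in 12.4% of all promoters, lay 192 bases before the upstream start of Otx2 and 127 bases before that of Slc4a5, and CCAAT or ATTGG, in 33.8% of all promoters, lay 70 bases before another start of Otx2. The motifs do not overlap in these windows, and a match of letters does not show that a factor binds there.

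The proportions between the members were compared by giving each gene in percent of its level in C_O72. C_W1, C_O15 and MS_O13 gave similar profiles, in which the 8 members besides Aqp1 lay at 14.9% to 31.1%, 11.6% to 34.9% and 11.6% to 25.0% of C_O72, respectively. In MS_W95 Ttr was at 37.4%, Slc4a5 at 41.8%, Kl at 53.3%, Sostdc1 at 63.0% and Otx2 at 96.0%. The ratio of Otx2 to Kl was 0.984 in MS_W95 and 0.547 in C_O72, and between 0.242 and 0.443 in C_W1, C_O15 and MS_O13. The ratio of Ttr to Kl was 317 to 514 in these 5 libraries and 156 in C_W70, but 4.87 to 30.1 in the 6 libraries with under 10 FPKM of Ttr.

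**Figure D2:**
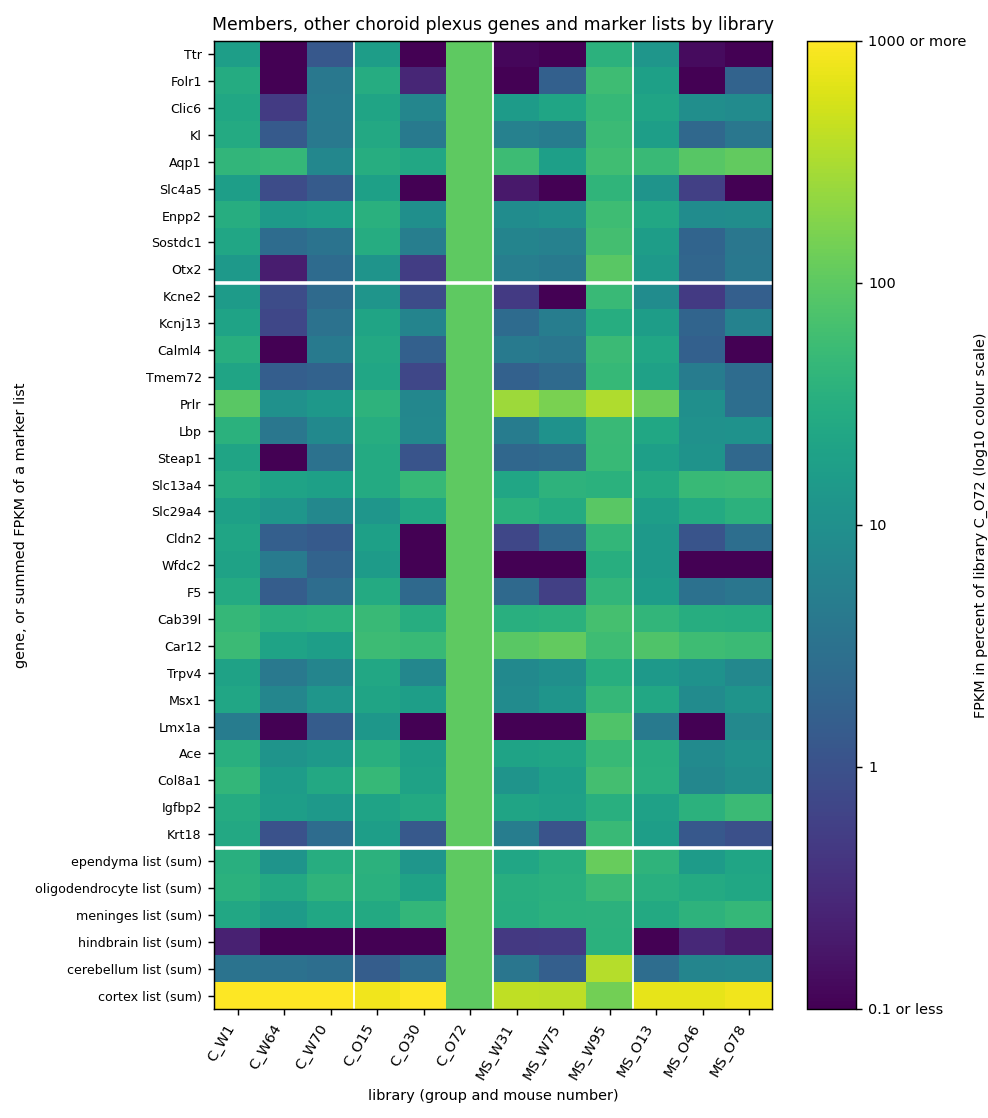
FPKM of the 9 members (top), of 21 other choroid plexus genes (middle) and summed FPKM of 6 marker lists (bottom) in each of the 12 libraries, in percent of the value in C_O72, with colour on a log10 scale. Beside C_O72, the libraries C_W1, C_O15, MS_W95 and MS_O13 stand out with most choroid plexus genes. The summed FPKM behind the hindbrain row is 79.6 in C_O72, 28.2 in MS_W95 and at most 0.383 in the other libraries.

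Markers of brain regions also set C_O72 and MS_W95 apart. The summed FPKM of 7 hindbrain markers, such as Hoxb5 and the glycine transporter Slc6a5, was 79.6 in C_O72 and 28.2 in MS_W95 and at most 0.383 in the other 10 libraries. That of 5 cerebellar markers, such as Pcp2 and Gabra6, was 818 in MS_W95, 231 in C_O72 and at most 16.3 elsewhere, and that of 4 cortical markers was 31.5 in C_O72, 44.7 in MS_W95 and at least 125 elsewhere. C_W1, C_O15 and MS_O13 held choroid plexus transcripts with hindbrain sums of only 0.183, 0.0301 and 0.0420 FPKM, so that these transcripts were high both with and without hindbrain markers. Other libraries stood apart as well. The summed FPKM of 6 hypothalamic markers, among them Avp and Oxt, was 97.1 in MS_W31 and 94.8 in MS_W75 and 1.08 to 16.1 elsewhere. That of 5 markers of the olfactory bulb was 213.04 in MS_O46 and 212.9 in MS_O78 and 2.80 to 82.8 elsewhere, and that of 6 striatal markers ran from 46.2 in C_W64 to 479 in MS_W75. The part of the regions held by each sample in the levels of the members was not tested.

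Of the 8 markers of ependyma, the ciliated lining of the ventricles, Dynlrb2 and Ak7 had their 5 highest values in the libraries with high Ttr. The summed FPKM of the list was 39.4 in MS_W95, 33.0 in C_O72 and 11.2 to 13.1 in C_W1, C_O15 and MS_O13, against 3.82 to 10.7 in the other libraries. Ependymal markers were thus also found in some libraries where Ttr was low, as in MS_W75 with 10.7 FPKM of the list and 2.16 of Ttr. That sum was the highest among the libraries with under 10 FPKM of Ttr. Ccdc153 and Tmem212 had 1.01 and 1.41 FPKM in MS_W75 and 0.684 and 1.05 in MS_W31. Both were listed at 0.0001 in C_W64, C_O30 and MS_O46, and they had 0.0256 and 0.0809 FPKM in MS_O78. None of the 8 markers of meninges, 5 of endothelium and 5 of blood shared the 5 highest libraries, and the summed FPKM of the meningeal list was 95.7 in C_O72 and 15.0 to 43.9 elsewhere.

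As a measure of likeness, Pearson's r of log2(FPKM + 1) with Ttr was computed over the 12 libraries and ranked among the tested genes. Because the libraries fall at separate levels of Ttr, r describes this split and no p is given. Folr1 had the highest r of all tested genes (0.953), followed among the members by Enpp2 (0.936, rank 7), Kl (0.922, rank 13), Sostdc1 (0.902, rank 20), Slc4a5 (0.886, rank 25), Otx2 (0.811, rank 115) and Clic6 (0.766, rank 235). Aqp1 had an r of 0.16 and rank 7890, and the median r of all tested genes was -0.01. The 6 members with r above 0.8 were above it also without C_O72 and MS_W95, which are the 2 libraries farthest from the median of Ttr, while r fell to 0.565 for Clic6 and was -0.14 for Aqp1. Taken as deviations from the group means, r was 0.860 to 0.962 for 7 members and 0.265 for Aqp1.

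Among the 13621 genes whose mean FPKM reached 1, the 10 most like Ttr were Folr1, 2900040C04Rik, Nfic, Prr32, Ecrg4, Enpp2, Drc7, Kl, Krt18 and Lbp, with r from 0.953 down to 0.903. Ecrg4, which encodes a secreted peptide precursor, had 63.9 FPKM in C_O72, 26.3 in MS_W95, 9.81 in C_W1, 8.73 in C_O15 and 8.603 in MS_O13, and 0.295 to 2.47 in the others. 2900040C04Rik was listed at 0.0001 in 6 libraries and had 22.1 FPKM in C_O72. Nfic, a transcription factor of broad expression, differed less, from 9.07 FPKM in MS_W31 to 19.8 in C_O72, and all 10 genes had their 5 highest values in the same libraries as Ttr.

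**Figure D3:**
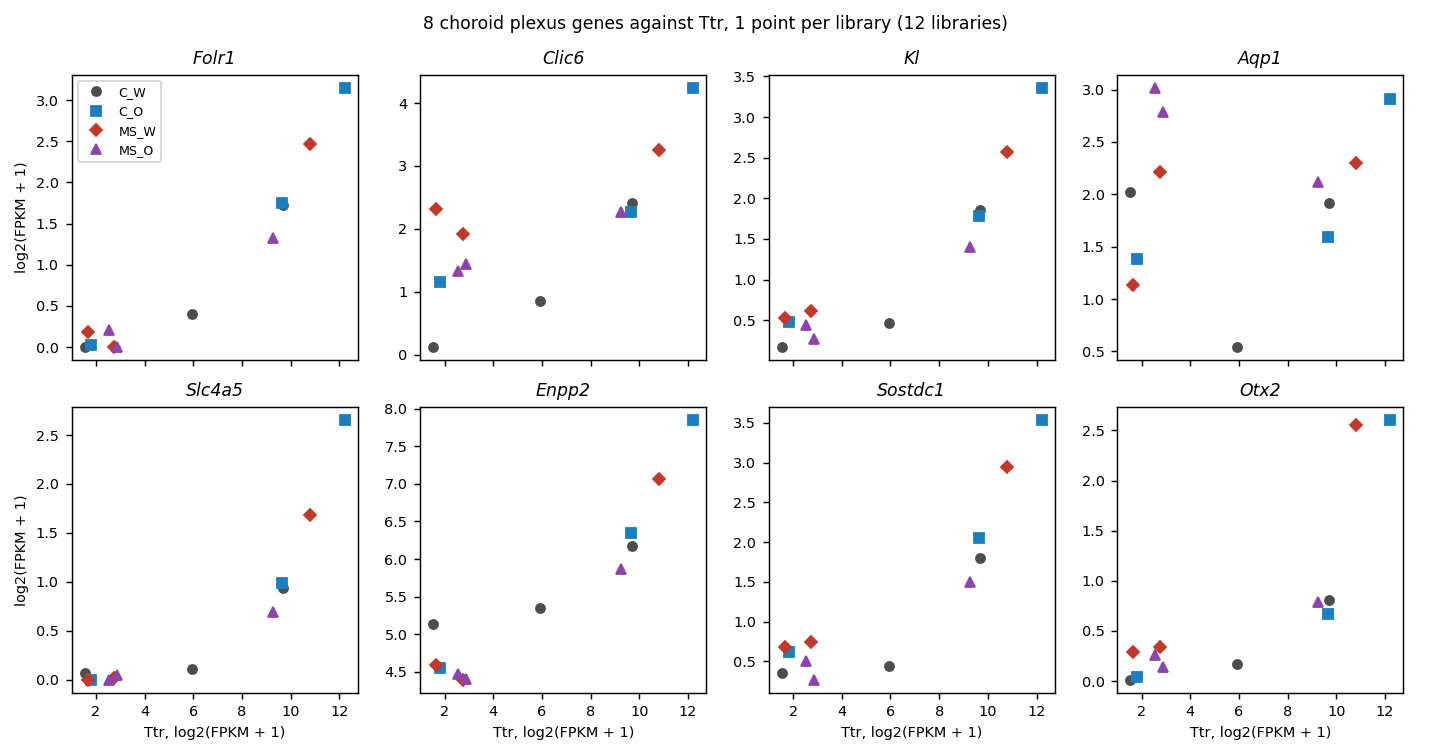
Level of 8 members against that of Ttr, both as log2(FPKM + 1), with 1 point per library and a colour and symbol per group. In all panels but those of Aqp1 and Clic6 the 5 libraries with high Ttr lie at the upper right, with C_O72 highest. The 6 libraries below 10 FPKM of Ttr lie at the lower left in these panels. For Clic6 C_O72 is highest too, but the 6 libraries are spread, with MS_W75 above C_O15 and MS_O13.

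Within the 6 libraries with under 10 FPKM of Ttr, the 8 members were compared with Ttr by exact two-sided permutation tests, adjusted over the 8 genes by the Benjamini-Hochberg method. Enpp2 had an r of -0.76 (exact p = 0.00556, adjusted p = 0.0444) and a rho of -0.94 (exact p = 0.0167, adjusted p = 0.133). Without the 2 of these 6 libraries farthest from their median of Ttr, r was -0.97, from the few libraries left. This relation rests on values of Enpp2 from 20.1 to 34.2 FPKM, with the highest in C_W64 where Ttr was lowest. The 6 libraries were picked by their level of Ttr and come from all groups. The permutation takes mice of different groups as exchangeable. A relation of Enpp2 with Ttr and a difference between groups therefore cannot be told apart here. For the other 7 members the permutation p was at least 0.117 for r and 0.175 for rho (exact), so that no relation with Ttr was detectable among these libraries. Folr1 and Slc4a5 were each listed at 0.0001 in 3 of them, so for these genes the test could hardly show a relation.

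The groups were then compared by 1 limma fit of the 4 groups to log2(FPKM + 1) of all tested genes, with Benjamini-Hochberg adjustment over these genes. The fold changes below are on that scale and understate the change of genes with low FPKM. In the comparison of MS_W with C_W, which asks for the effect of CUMS without krill oil, none of the 9 members passed an adjusted p of 0.05, beside 0.00467% of all tested genes. No member had groups without overlap, beside 24.6% of all tested genes. Clic6 was closest, with a mean of 5.07 ± 3.01 FPKM in MS_W and 1.74 ± 2.27 in C_W (SD, n = 3) and a log2 fold change of 1.36 ± 0.77 (SE; limma, adjusted p = 0.547). Ttr had a mean of 597 ± 1028 FPKM in MS_W and 296 ± 461 in C_W, and a log2 fold change of -0.65 ± 3.31 (SE; limma, adjusted p = 0.948).

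The arithmetic mean of Ttr was thus higher in MS_W and the mean of its logarithms was lower, since the former follows MS_W95 alone. Of the 9 log2 fold changes 7 were above 0, with a median of 0.38 beside 0.06 over all tested genes. Without C_O72 and MS_W95 the median was -0.26 and 2 of 9 were above 0, and Ttr was at -3.51 ± 3.05 (SE). The value of Ttr was above 0 without C_W1 (1.34), MS_W31 (0.52) or MS_W75 (1.06). Among the 21 other choroid plexus genes none passed the adjusted threshold, 20 were above 0 and the median was 0.23, with Prlr, Car12 and Slc29a4 at an unadjusted p under 0.05 (limma, adjusted p from 0.281), as were 10.5% of all tested genes. The 5 highest libraries of these 3 genes were not those of Ttr. All 8 markers each of ependyma, meninges and oligodendrocytes were above 0 as well, with medians of 0.56, 0.54 and 0.23. So were all 6 hypothalamic and all 6 striatal markers (medians 1.62 and 1.70), while all 4 cortical markers were below 0 (-1.60). At an unadjusted p under 0.05 were 1 meningeal, 3 hypothalamic, 2 striatal and 2 cortical markers (limma, adjusted p from 0.184). No marker of hindbrain, cerebellum or olfactory bulb was at this level. The part of these cell types and regions was not tested.

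With krill oil, the comparison of MS_O with C_O asks for the effect of CUMS. None of the 9 members passed the adjusted threshold, beside 0.00467% of all tested genes, and none was without overlap, beside 12.2%. The log2 fold changes were below 0 for 8 of 9 members, with a median of -1.13 (all tested genes, 0.03), and ran from -3.01 ± 3.31 for Ttr (SE; limma, adjusted p = 0.799) and -1.33 ± 0.87 for Enpp2 (SE; limma, adjusted p = 0.675) to 0.68 ± 0.51 for Aqp1 (SE; limma, adjusted p = 0.715). Ttr had a mean of 208 ± 350 FPKM in MS_O and 1860 ± 2554 in C_O (SD, n = 3). Without C_O72 and MS_W95 the median was -0.38 and Ttr was at -0.84 ± 3.05 (SE). Sostdc1, with 0.812 ± 0.876 FPKM in MS_O and 4.76 ± 5.23 in C_O (SD), had the smallest adjusted p of the members in limma, 0.655, and its log2 fold change was -1.32 ± 0.79 (SE).

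All 21 other choroid plexus genes were below 0 in MS_O against C_O, with a median of -0.67, and none passed the adjusted threshold or an unadjusted p of 0.05. All 8 markers each of ependyma, meninges and oligodendrocytes were below 0 too, with medians of -0.40, -0.28 and -0.52, and all 5 of the olfactory bulb were above 0 at an unadjusted p under 0.05 (median 2.53, limma, adjusted p from 0.479), beside 8.88% of all tested genes. The part of these cell types and regions was not tested. Aqp1, with 5.45 ± 1.93 FPKM in MS_O and 3.39 ± 2.73 in C_O (SD), was the only member above 0. Without C_O72 and MS_W95 its log2 fold change was 1.15 ± 0.50 (SE; limma, adjusted p = 0.362).

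In the comparison of C_O with C_W, which asks for the effect of krill oil in unstressed mice, no member passed, beside 0% of all tested genes in limma, of which 760 had an unadjusted p under 0.05, and edgeR called 0 and DESeq2 54 genes. No groups of a member were without overlap, beside 9.42% of all tested genes. All 9 log2 fold changes were above 0, from 0.47 ± 0.51 for Aqp1 to 2.18 ± 3.31 for Ttr (SE; limma, adjusted p = 0.908 and 0.919), with a median of 0.94 beside 0.00 over all tested genes. Clic6 was at 1.43 ± 0.77 (SE; limma, adjusted p = 0.908), from means of 7.68 ± 9.01 FPKM in C_O and 1.74 ± 2.27 in C_W (SD). The 21 other choroid plexus genes were also all above 0, with a median of 0.74, and Car12 and Slc13a4 were at an unadjusted p under 0.05, beside 3.55% of all tested genes. All 8 markers each of meninges, ependyma and oligodendrocytes were above 0 in the same comparison, with medians of 0.74, 0.35 and 0.33. At an unadjusted p under 0.05 were 5 of the 8 meningeal markers, 1 of the ependymal and none of the oligodendrocyte markers (limma, adjusted p = 0.908 or more), and the part of these cell types was not tested. C_O72 had the highest FPKM of all libraries for every member but Aqp1, and without it and MS_W95 the median of the 9 members was 0.13 and the value of Ttr was 0.02 ± 3.05 (SE).

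Krill oil in stressed mice is addressed by MS_O against MS_W. None of the 9 members passed, beside 0.00467% of all tested genes, and none was without overlap, beside 12.3%. The log2 fold changes of 8 members were below 0, with a median of -0.43 (all tested genes, -0.02), and Aqp1 was at 0.76 ± 0.51 (SE; limma, adjusted p = 0.837), with 5.45 ± 1.93 FPKM in MS_O and 2.91 ± 1.499 in MS_W (SD). Ttr was at -0.18 ± 3.31 (SE; limma, adjusted p = 0.996). Without C_O72 and MS_W95 the median was 0.24, 8 of 9 members were above 0, and Ttr was at 2.69 ± 3.05 (SE). Without MS_O46 or MS_O78 the value of Ttr was 0.83 or 0.99. Of the 21 other choroid plexus genes 19 were below 0, with a median of -0.21, and Prlr was the one with an unadjusted p under 0.05 (-0.34 ± 0.09, SE; limma, adjusted p = 0.656), beside 6.09% of all tested genes. All 8 markers of ependyma (median -0.45) and all 8 of oligodendrocytes (-0.42) were below 0, as were 5 of 8 of meninges (-0.19), and their part was not tested.

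The interaction of CUMS and krill oil, the difference between MS_O against C_O and MS_W against C_W, was below 0 for 8 of 9 members, with a median of -1.43 beside -0.02 over all tested genes. No member passed, beside 0% of all tested genes in limma, of which 1546 had an unadjusted p under 0.05, and edgeR called 0 and DESeq2 151 genes. Clic6 was at -2.24 ± 1.09 (SE; limma, adjusted p = 0.665), and Ttr at -2.36 ± 4.68 (SE; limma, adjusted p = 0.877). Without C_O72 and MS_W95 the median was 0.11, and without MS_W95 alone Ttr was at 0.51. All 21 other choroid plexus genes were below 0 (median -0.85), with Car12 and Prlr at an unadjusted p under 0.05, beside 7.23% of all tested genes, and all 8 markers each of ependyma, meninges and oligodendrocytes were below 0 (medians -0.86, -0.81 and -0.74). Since these comparisons share groups, their values are not independent of each other.

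Other tools gave no call for a member either. With edgeR on the estimated counts no member passed in the 5 comparisons, also at an unadjusted p of 0.05. Over all tested genes, edgeR had 9.37% under this p in MS_W against C_W and 8.54% in MS_O against C_O. The share was 4.47% in C_O against C_W, 5.65% in MS_O against MS_W and 8.1% in the interaction. With DESeq2 none passed at an adjusted p of 0.05, and at an unadjusted p under 0.05 there were Enpp2 and Sostdc1 in MS_O against C_O, Clic6 in C_O against C_W, and Clic6, Sostdc1 and Otx2 in the interaction. Over all tested genes, DESeq2 had 10.5%, 5.82% and 9.98% at this level in these comparisons. In limma no member had an unadjusted p under 0.05 in any of the 5 comparisons. The limma shares over all tested genes, in the order given for edgeR, were 10.5%, 8.88%, 3.55%, 6.09% and 7.23%. The lists of ion transport, lysophosphatidic acid, and BMP and Wnt genes had no member past the adjusted threshold in any comparison. Of the 12 genes of ion transport, Car12 was at an unadjusted p under 0.05 in MS_W against C_W and C_O against C_W (higher) and in the interaction (below 0), and Kcnq1 in MS_O against C_O (higher). Of the 7 genes of lysophosphatidic acid, Lpar3 (higher) and Plpp1 (lower) were so in MS_O against C_O, and none was in the other comparisons. None of the 5 genes of BMP and Wnt was so in any comparison.

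**Figure D4:**
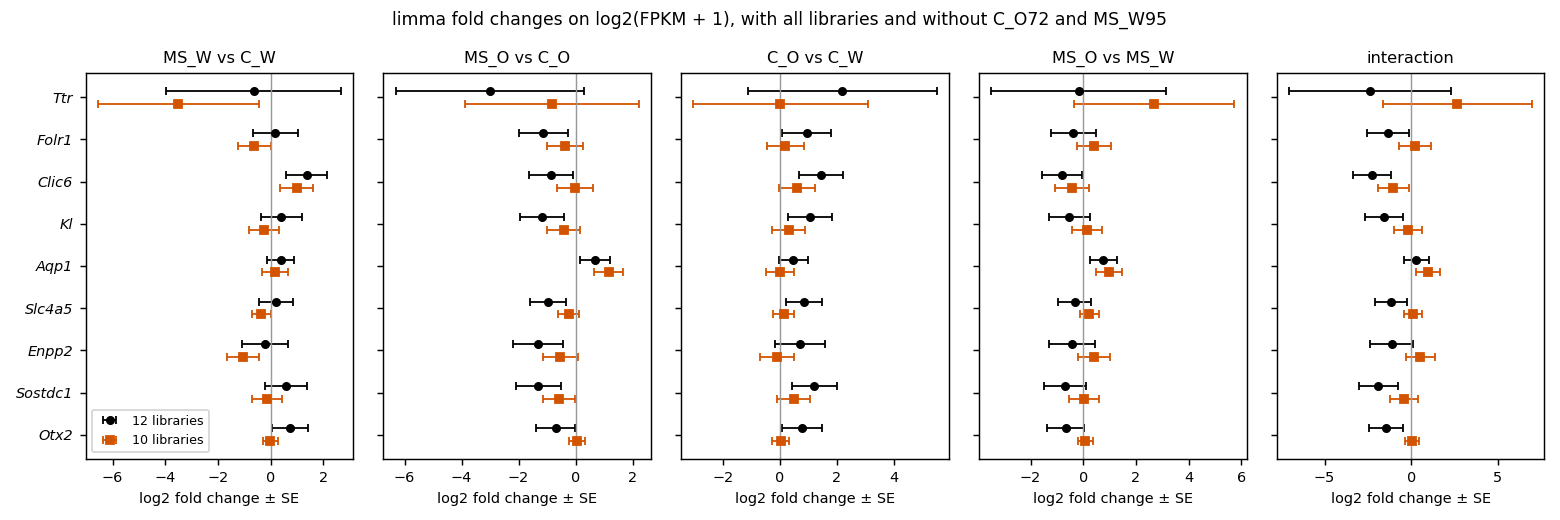
log2 fold change ± SE of the 9 members in the 4 comparisons and the interaction, from limma on log2(FPKM + 1), with all 12 libraries (black circles) and with the 10 libraries without C_O72 and MS_W95 (orange squares). The medians move from 0.38 to -0.26, -1.13 to -0.38, 0.94 to 0.13, -0.43 to 0.24 and -1.43 to 0.11, and no adjusted p is under 0.05 in either fit.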

How the data were processed

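Poly(A) RNA was read from 12 whole brains. The labels place 3 mice in each group (C_W, C_O, MS_W and MS_O). The authors trimmed the reads and ran HISAT, StringTie and Ballgown, and the submitters' notes name cutadapt 1.9, HISAT2 2.0.4, StringTie 1.3.4d and the build mm10. They deposited FPKM values, with a lower bound of 0.0001 for genes without an estimate. The estimated counts were deposited in the same table. For 1179 genes with 1 transcript these counts were FPKM multiplied by length and a library constant, to within a median of 0.0307%, and so are not tallies of single reads. Handling of multiply aligned reads is not given in the sources used here.

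Groups were compared with limma 3.58.1 under R 4.3.3 on log2(FPKM + 1), with a trended prior variance, in 1 fit of 4 groups to the 21393 genes whose mean FPKM reached 0.1, with Benjamini-Hochberg adjustment over all of them and a threshold of 0.05. edgeR 4.0.16 and DESeq2 1.42.0 were run on the estimated counts as alternatives, beside pseudocounts of 0.1 and 0.01, other filters, scalings and variance models, the 10 libraries without C_O72 and MS_W95, and each library left out in turn. The tests were checked on simulated data whose spread was much smaller than that of the members, so this check does not cover levels like theirs. The members, the gene lists, the tests and the alternatives were chosen with earlier results of these data known. All 9 members are named, further genes only from the lists or as 1 of the 10 genes most like Ttr whose mean FPKM reached 1. A planned permutation p for the correlations over 12 libraries was not used, since the libraries fall at separate levels of Ttr. Gene coordinates are those of the deposited table (GRCm38), and for Slc4a5, Enpp2 and Otx2 they differ from the GENCODE annotation used for exon overlaps. Promoters are from RefSeq (GRCm38.p6). The estimated counts per library summed to 50912906 to 75678721. These sums are not sequencing depth, since the highest exceeds the number of reads that the paper lists for any library. The 3 mice per group limit the precision. The results of some genes and of 2 gene lists are not reported here.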

Additional observations from a re-analysis of the deposited data

How the results depend on the processing

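No call of a member depended on the processing, since 0 of 124 fitted comparisons had a member past the adjusted threshold, and the smallest adjusted p was 0.200 (Aqp1 in MS_O against C_O with array weights in limma). The most members at an unadjusted p under 0.05 in any of them was 5, in MS_O against C_O without C_O30, where 10.9% of all tested genes were at this level. Over all tested genes DESeq2 called more than limma, with 389 against 1 in MS_W against C_W, 172 against 1 in MS_O against C_O, 54 against 0 in C_O against C_W, 79 against 1 in MS_O against MS_W and 151 against 0 in the interaction. The limma count itself moved in MS_W against C_W to 824 with array weights, 246 without C_O72 and MS_W95 and 121 with only the groups compared. Leaving out 1 library gave 0 to 101 calls in MS_W against C_W (most without C_O72, and 58 without MS_W95), 1 to 112 in MS_O against C_O (without MS_O13), 0 to 4 in C_O against C_W (without C_W1), 1 to 31 in MS_O against MS_W (without C_O72) and 0 to 20 in the interaction (without C_O15). Of the log2 fold changes of single members, 494 of 526 kept their direction under other settings and 512 of 540 when 1 library was left out. With 3 mice per group and levels that differ so much between mice, changes well above the standard errors given could also go undetected. Clic6 in the interaction, at -2.24 ± 1.09 (SE), had an adjusted p of 0.665 in limma. No paired analysis was possible because the groups share no mouse numbers. The cause of the changes listed here was not tested.

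In MS_W against C_W, the direction turned with a pseudocount of 0.1 for Slc4a5 (-0.000943), and with 0.01 for Slc4a5 (-1.08) and Folr1 (-0.075). It turned with array weights for Folr1 (-0.37), Kl (-0.024) and Slc4a5 (-0.19). With edgeR, Ttr was at 0.88 and Enpp2 at 0.15, and with DESeq2 they were at 0.87 and 0.15. The values turned without C_O72 and MS_W95 to -0.62 for Folr1, -0.26 for Kl, -0.36 for Slc4a5, -0.15 for Sostdc1 and -0.018 for Otx2. Leaving out 1 library gave -3.51 to 1.34 for Ttr and -1.06 to 0.27 for Enpp2 (turned by C_W1, MS_W31 or MS_W75), -0.62 to 0.68 for Folr1 (C_W64 or MS_W95) and -0.092 to 0.76 for Aqp1 (C_W70). It gave -0.26 to 0.92 for Kl, -0.36 to 0.48 for Slc4a5, -0.15 to 1.06 for Sostdc1 and -0.018 to 1.11 for Otx2 (MS_W95).

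In MS_O against C_O the median of the members was -2.43 with edgeR and -2.44 with DESeq2. Otx2 was at 0.044 without C_O72 and MS_W95, and at -1.24 to 0.044 when 1 library was left out (turned by C_O72). In C_O against C_W the median was 2.02 with a pseudocount of 0.01 and 2.10 with edgeR and with DESeq2. Aqp1 was at -0.00396 and Enpp2 at -0.11 without C_O72 and MS_W95. Leaving out 1 library gave -0.00664 to 0.76 for Aqp1 (turned by C_W70 or C_O72) and -0.11 to 1.54 for Enpp2 (C_O72).

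In MS_O against MS_W array weights turned Ttr to 0.67 and Folr1 to 0.039. The 10 libraries without C_O72 and MS_W95 gave 2.69 for Ttr, 0.42 for Folr1, 0.14 for Kl, 0.24 for Slc4a5, 0.42 for Enpp2, 0.043 for Sostdc1 and 0.085 for Otx2. Leaving out 1 library gave -2.36 to 2.69 for Ttr (turned by MS_W95, MS_O46 or MS_O78), -0.81 to 0.42 for Folr1, -0.88 to 0.14 for Kl, -0.61 to 0.24 for Slc4a5, -0.91 to 0.42 for Enpp2, -1.09 to 0.043 for Sostdc1 and -1.05 to 0.085 for Otx2 (MS_W95). In the interaction the median was -2.56 with a pseudocount of 0.01, -3.28 with edgeR, -3.29 with DESeq2 and 0.11 without C_O72 and MS_W95. Without these 2 libraries Ttr was at 2.67, Folr1 at 0.24, Slc4a5 at 0.11, Enpp2 at 0.53 and Otx2 at 0.063. Leaving out 1 library gave -5.40 to 0.51 for Ttr (turned by MS_W95) and -0.082 to 0.77 for Aqp1 (MS_W75).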
